A study of Mus musculus with 2 samples.

Results

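Siglecs are cell-surface receptors of the immunoglobulin superfamily that bind sialic acid, the sugar that caps many glycans on a cell's own surface. Most carry tyrosine motifs in the cytoplasmic tail that recruit phosphatases and lower cell activation, whereas a few signal through the adaptor DAP12 or act mainly in adhesion. On dendritic cells and macrophages they are known for setting how strongly a cell answers to microbial products. The genes described here were the 7 Siglec genes Siglec1, Siglec5, Siglece, Siglecg, Siglech, Cd22 and Cd33, out of 21922 genes with a symbol on the array. They were taken by gene symbol, with earlier results of these data known. Each had 1 probe set, a group of probes summarised into 1 value, and none was marked as cross-hybridising in the deposited annotation.

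The cells were unstimulated bone marrow-derived dendritic cells of the inbred mouse strains CBA/J and C57BL/6. Marrow of normal mice was grown with a GM-CSF-containing supernatant from a transfected hybridoma and harvested on day 7. The cells were then plated for 4 h, replicate wells were combined, and their RNA was measured on Mouse Gene 1.0 ST arrays from Affymetrix. The age, sex and number of the mice and the C57BL/6 substrain are not given in the sources used here. With 1 array for each strain, replicate error could not be estimated and no test was possible. Strain therefore cannot be told apart from animal, culture or array. The comparison asks which Siglec transcripts differ between resting dendritic cells of these strains. Each difference is the log2 signal of CBA/J less that of C57BL/6, so a positive value means higher in CBA/J. A gene reached the level rule where its signal was at or above an array's median over genes, 6.16 for CBA/J or 6.21 for C57BL/6. Of the markers of the labelled cell type, Itgax, which encodes CD11c, was bright, at 10.50 in CBA/J and 10.63 in C57BL/6. Cd74, the class II invariant chain gene, was bright too, at 12.02 in CBA/J and 12.33 in C57BL/6. Flt3, at 5.67 in CBA/J against 5.65 in C57BL/6, and Xcr1, at 5.01 in CBA/J against 5.17 in C57BL/6, are markers of steady-state conventional dendritic cells and reached the level rule on neither array.

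Of the 7 Siglec genes, 6 had the higher signal in CBA/J and 1, Siglecg, had the higher signal in C57BL/6. Siglec5 was the only member past 2-fold, at 2.15-fold higher in CBA/J, and Cd33 (1.58-fold) and Cd22 (1.54-fold) came next. These were followed by Siglece at 1.39-fold and Siglec1 at 1.34-fold, whereas Siglech was nearly level at 1.06-fold. The level rule was reached by 6 members, all but Siglech. Among these the median difference was 0.55, against 0.08 over the 11448 genes at the level rule. A positive difference was found in 5 of the 6 members, against 61.2% of those genes. Of these 5, Siglece reached the rule only through its higher CBA/J signal, by 0.04, and it enters the median too. A difference of at least 2-fold toward CBA/J was found in 1 of the 6, against a background of 1.35% (2.14% in either direction). None was 2-fold higher in C57BL/6, against 0.795%. A difference of 1.5-fold or more toward CBA/J was found in 3 of the 6, against 4.45%. With so few members these shares are descriptions.

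**Figure D1:**
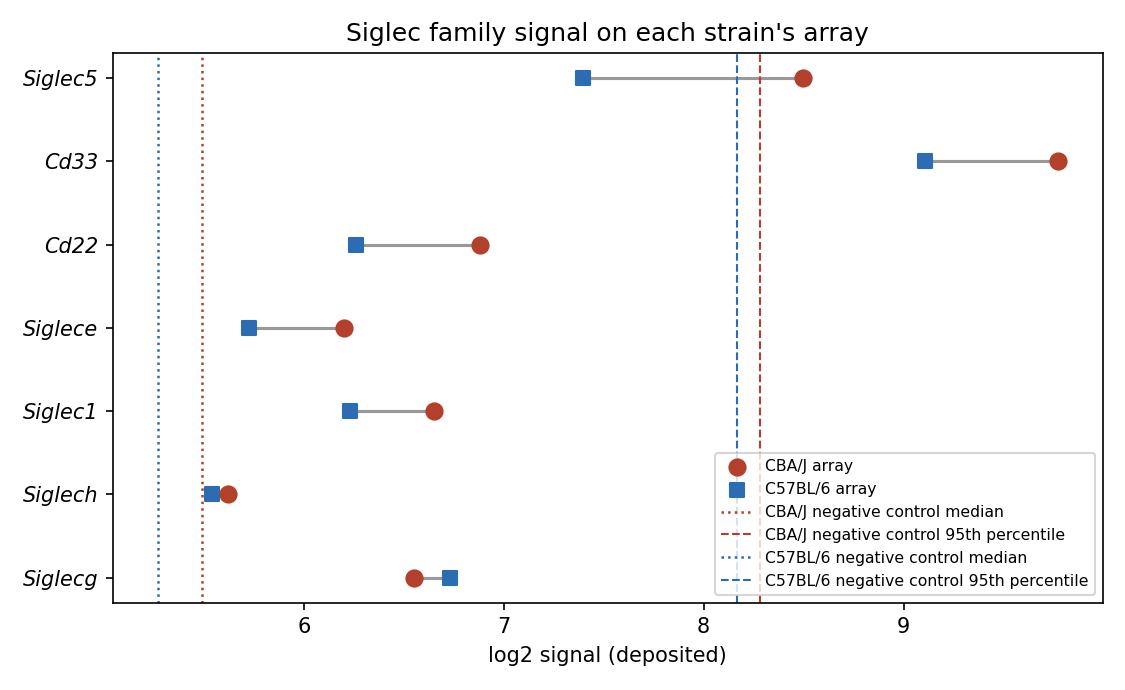
Deposited log2 signal (horizontal axis) of the 7 Siglec genes on the CBA/J array (circles) and the C57BL/6 array (squares), in order of their difference, with the median (dotted) and 95th percentile (dashed) of each array's negative control probe sets. Cd33 lies above the 95th percentile on both arrays and Siglec5 on the CBA/J array only, and every other member lies between the median and the 95th percentile.

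The sequences upstream of Siglec5 and Cd33 are shown because these members had the largest differences, and that of Siglecg because it lies next to Siglec5 and had the opposite sign. Siglec5 is named Siglecf in RefSeq, matched through its transcript accession. Windows of 250 bases before to 50 bases after an annotated start were taken from RefSeq on GRCm38.p6, where 6 of the 7 members had one. The Siglec5 window is chr7:43351091-43351390 on the plus strand, the Cd33 window chr7:43533122-43533421 on the minus strand, and the first listed Siglecg window chr7:43407989-43408288 on the plus strand. Each is written in the direction of transcription, and capitals mark stretches of 10 or more bases that the Siglec5 and Cd33 windows have in common.
Siglec5: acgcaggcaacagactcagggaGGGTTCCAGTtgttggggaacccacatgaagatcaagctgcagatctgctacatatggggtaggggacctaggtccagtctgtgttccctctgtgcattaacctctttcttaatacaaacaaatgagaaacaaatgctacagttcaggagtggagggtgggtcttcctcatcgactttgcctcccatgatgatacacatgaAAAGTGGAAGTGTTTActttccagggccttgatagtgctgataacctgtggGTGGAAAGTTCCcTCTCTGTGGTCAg
Cd33: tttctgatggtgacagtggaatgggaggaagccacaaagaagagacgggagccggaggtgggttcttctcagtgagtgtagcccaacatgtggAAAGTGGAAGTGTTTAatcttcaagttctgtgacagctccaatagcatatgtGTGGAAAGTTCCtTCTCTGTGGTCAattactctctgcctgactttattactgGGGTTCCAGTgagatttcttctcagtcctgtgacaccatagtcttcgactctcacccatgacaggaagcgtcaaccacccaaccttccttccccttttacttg
Siglecg: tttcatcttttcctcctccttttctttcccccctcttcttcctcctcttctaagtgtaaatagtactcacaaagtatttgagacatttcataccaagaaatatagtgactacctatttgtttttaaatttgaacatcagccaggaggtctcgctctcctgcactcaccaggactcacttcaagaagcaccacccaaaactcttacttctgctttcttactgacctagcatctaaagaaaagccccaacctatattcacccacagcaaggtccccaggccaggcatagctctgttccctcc

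The Siglec5 and Cd33 windows shared 4 such stretches, and no other of the 15 member pairs shared more than 1. The longest, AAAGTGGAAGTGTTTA, was 16 bases long and occurred on either strand in 2 of 32851 annotated windows, which are these 2. GTGGAAAGTTCC was likewise found in 2 windows, TCTCTGTGGTCA in 9 (0.0274%) and GGGTTCCAGT in 27 (0.0822%). The first 3 stretches stood in the same order in both genes. Their starts were 51 and then 13 bases apart in Siglec5, and 52 and then 13 bases apart in Cd33. In Siglec5 they began at positions -27, 24 and 37 relative to the annotated start, and in Cd33 at -157, -105 and -92, so the shared block lies further upstream of the annotated start of Cd33. The Siglecg window shared no such stretch with either gene.

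Next, 6 motifs of factors that act in myeloid cells or after cytokine signals were searched on both strands. GGAAGTG, a form bound by ETS factors such as PU.1, occurred once in the Siglec5 and Cd33 windows, inside the longest shared stretch, and once on the other strand in the Siglech window. It is present in 11.0% of all windows. TGTGGT, a RUNX form, occurred once in the same 3 members, in the Siglec5 and Cd33 windows inside TCTCTGTGGTCA, and is present in 16.8% of all windows. TTCNNNGAA, a STAT form, and TTGCNNAA, a C/EBP form, were found only in the Siglech window among the 6, against 8.30% and 10.8% of all windows. The interferon response element, as a GAAA repeat with a gap of 2 bases (3.44% of windows), and TGANTCA, an AP-1 form (7.81%), were found in none of the 6. These are matches of letters in a C57BL/6 reference and do not show binding.

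Siglec5 encodes Siglec-F, an inhibitory receptor known from eosinophils and alveolar macrophages of the mouse. Its log2 signal read 8.50 on the CBA/J array and 7.40 on the C57BL/6 array, a difference of 1.102. It ranked 125th toward CBA/J among the 11448 genes at the level rule. The CBA/J value was above 95.7% of that array's negative control probe sets and the C57BL/6 value above 90.2% of its own. Only the CBA/J signal thus passed the 95th percentile of the negative controls. Of 304 negative controls with a mean signal within 0.5 of that of Siglec5, 2 differed as much in either direction. Over all 1845 negative controls at the level rule, however, 101 (5.47%) differed 2-fold or more, 80 of them toward CBA/J, a larger share than the 2.14% of genes. The difference lay close to the 2-fold line and fell just under it in several alternatives, at 0.98 after quantile normalization or removal of a trend with signal level, and at 0.97 with a pseudocount of 32.

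Cd33 encodes a receptor of myeloid cells and had the signal furthest above the negative controls. Its log2 signal read 9.77 on the CBA/J array and 9.11 on the C57BL/6 array, a difference of 0.66. These values exceeded 98.5% of negative controls in CBA/J and 97.6% in C57BL/6. At this level 12 of 83 negative controls differed as much, so the yardstick is looser than for Siglec5. Siglece encodes Siglec-E, an inhibitory receptor of neutrophils, monocytes and macrophages. Its log2 signal read 6.20 on the CBA/J array and 5.73 on the C57BL/6 array, a difference of 0.47. Both values lay amid the negative controls, and 481 of 1197 negative controls of like signal differed as much. Siglece reached the level rule by 0.04 on the CBA/J array alone, the narrowest margin among the members that reached it on that array, whereas Siglech lay at -0.54 from it in CBA/J and -0.67 in C57BL/6.

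Siglecg and Cd22 encode inhibitory receptors best known from B cells, where CD22 restrains the antigen receptor. Siglec-G is also known to bind CD24 and to dampen responses to tissue damage. Siglecg read 6.55 in log2 signal on the CBA/J array and 6.73 on the C57BL/6 array, a difference of -0.18. As many as 649 of 934 negative controls of like signal differed by that much. Cd22 read 6.88 in log2 signal on the CBA/J array and 6.26 on the C57BL/6 array, a difference of 0.62, which 194 of 968 such controls reached. Its signal exceeded 81.0% of negative controls in CBA/J and 72.9% in C57BL/6. B cell markers were measured beside these genes. None of the 10 markers reached the level rule, and their summed linear signal was 372 on the CBA/J array and 369 on the C57BL/6 array. Cd79a, Ms4a1, Fcer2a, Ebf1 and Cr2 lay below the negative control median on both arrays.

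Siglech encodes Siglec-H, a receptor of mouse plasmacytoid dendritic cells that signals through DAP12. Its log2 signal read 5.62 on the CBA/J array and 5.54 on the C57BL/6 array. These values were above 53.0% of the negative controls in CBA/J and 56.99% in C57BL/6, so Siglech was not told apart from them on either array. Other plasmacytoid dendritic cell markers had a median difference of -0.21 over the 9 of 10 that reached the level rule. Cox6a2 was the marker past 2-fold, at 6.99 on the CBA/J array and 8.04 on the C57BL/6 array. The summed linear signal of the list was 2311 on the CBA/J array and 2436 on the C57BL/6 array, with Ccr9 below the negative control median on both arrays. Klk1, the brightest of the list, ran against its median, at 10.13 on the CBA/J array and 9.71 on the C57BL/6 array. It supplied 1119 of the CBA/J sum and 840 of the C57BL/6 sum, so the near equality of the sums rests on this gene.

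Siglec1 encodes sialoadhesin, a macrophage adhesion receptor without an inhibitory tail motif that captures sialylated particles and is known to be induced by type I interferon. Its log2 signal read 6.65 on the CBA/J array and 6.23 on the C57BL/6 array, a difference of 0.42, and 415 of 1025 negative controls of like signal differed as much. Interferon-stimulated genes had a median difference of 0.16 over the 18 of 21 that reached the level rule. Of these, 1 was past 2-fold toward CBA/J and none toward C57BL/6, against 1.35% and 0.795% of all genes at the level rule. That gene was Ifi44, at 7.31 on the CBA/J array and 5.84 on the C57BL/6 array. Ifi44 reached the level rule on the CBA/J array only, and a level rule at the 95th percentile of negative controls dropped it. Usp18 (0.84), which restrains interferon signalling, and Bst2 (-0.75), which encodes tetherin, followed in size, while Stat2 (0.13), a transcription factor of the interferon response and among the brightest members, differed little. The 18 split into 12 positive and 6 negative differences, beside 61.2% higher in CBA/J over all genes at the level rule.

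**Figure D2:**
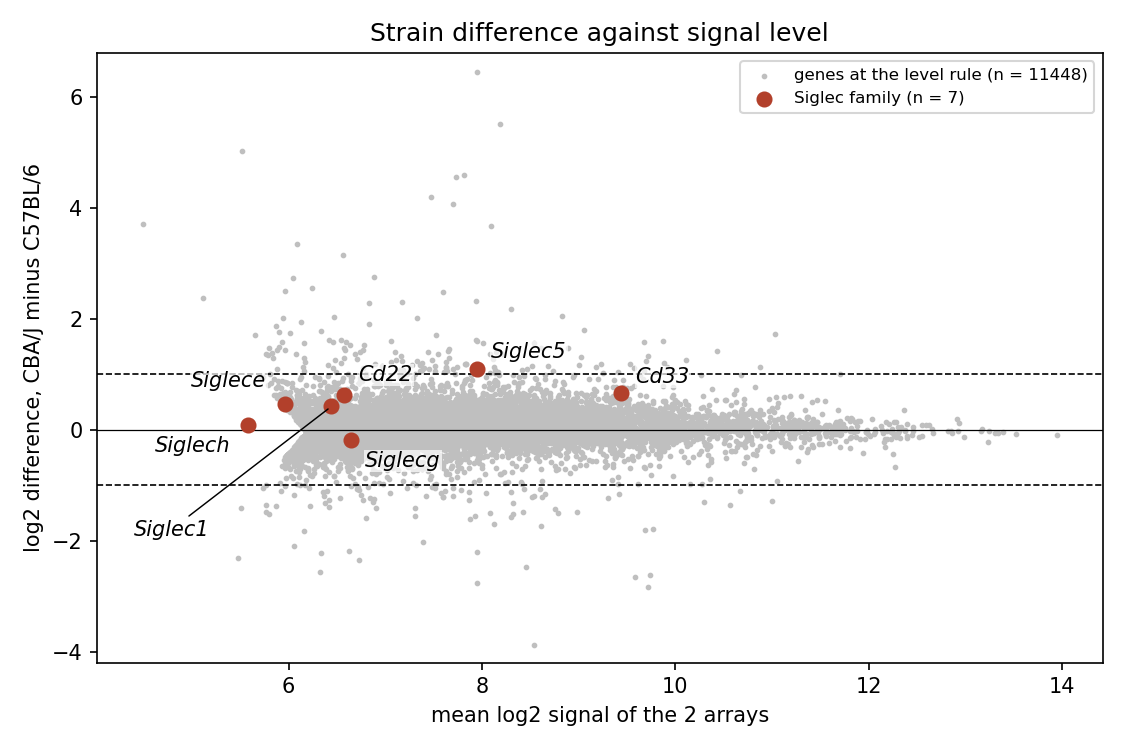
Log2 difference, CBA/J minus C57BL/6 (vertical axis), against mean log2 signal of the arrays (horizontal axis) for the 11448 genes at the level rule (grey) and the 7 Siglec genes (red), with 2-fold lines dashed. Siglec5 is just above the upper 2-fold line, 5 members lie between 0 and that line, and Siglecg lies below 0.

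Of the members, 6 lie on chromosome 7 and Siglec1 on chromosome 2. In RefSeq gene order Siglec5 and Siglecg are adjacent, and their differences of 1.102 and -0.18 had opposite signs. The gene on the other side of Siglec5, the zinc finger gene Zfp715, had a difference of 0.47. Of the 12 measured genes that flank members and are not members themselves, 4 reached the level rule and none was past 2-fold. Those 4 ran from -0.29 for Adam33, next to Siglec1, to 0.81 for Tubgcp5, next to Siglech, with Atpbd3 beside Siglece at 0.05. Siglec genes of chromosome 7 are related in sequence, which can blur their separate signals. The array's probes were designed on the C57BL/6 reference genome, and a mismatch in CBA/J could lower its signal. Probe sequences were not used here, and the part of mismatches in the Siglecg value was not tested.

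Genes that carry Siglec signals were measured next. Of 16 listed partners 15 reached the level rule, with 11 positive and 4 negative differences, beside 61.2% positive over all such genes. The list's median was 0.29, against 0.08 over all genes at the level rule. With so few genes these values are descriptions. The Src family kinase gene Fgr was past 2-fold, reading 8.42 in log2 signal on the CBA/J array and 7.24 on the C57BL/6 array. Ptpn6, which encodes the phosphatase that inhibitory Siglecs recruit, had 9.89 in CBA/J and 9.45 in C57BL/6, a difference of 0.44. Tyrobp, which encodes DAP12, had 10.79 in CBA/J and 10.35 in C57BL/6, also a difference of 0.44. Inpp5d, which encodes an inositol phosphatase, differed by 0.19. Glycoproteins that Siglecs bind had a median of 0.17 over 4 of 5 members, with Cd24a at 0.36, Spn, which encodes CD43, at 0.23 and Ptprc, which encodes CD45, at 0.11. None of them was past 2-fold.

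Genes that make, attach or remove sialic acid had list medians between -0.00082 and 0.19, and none of them was past 2-fold. Sialic acid synthesis and handling genes had a median of -0.00082 over 7 of 8 members. Slc35a1, the transporter that brings activated sialic acid into the Golgi, had 7.38 in CBA/J and 6.68 in C57BL/6, and the phosphatase gene Nanp differed by 0.52. The brightest members, Renbp (0.09) and Cmas (-0.01), differed little. Cmah, which makes the N-glycolyl form of sialic acid that some mouse Siglecs prefer, was below the negative control median on both arrays, at 4.56 on the CBA/J array and 4.67 on the C57BL/6 array. Sialyltransferase genes had a median of 0.03 over 10 of 18 members. St3gal4 (0.76) and St3gal5 (0.69) were higher in CBA/J, St3gal3 (-0.49) was higher in C57BL/6, and the brightest members, St8sia4 and St3gal1, differed by 0.39 and -0.21. Genes for removal and editing of sialic acid had a median of 0.19, with positive differences in all 5 of its 8 genes at the level rule, a count too small to set apart from the 61.2% of all such genes that were positive. Casd1, which adds acetyl groups to sialic acid, was at 0.66, the lysosomal exporter Slc17a5 at 0.30 and Ctsa, a partner of the sialidase Neu1, at 0.19. The sialidase genes Neu2, Neu3 and Neu4 were below the level rule.

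**Figure D3:**
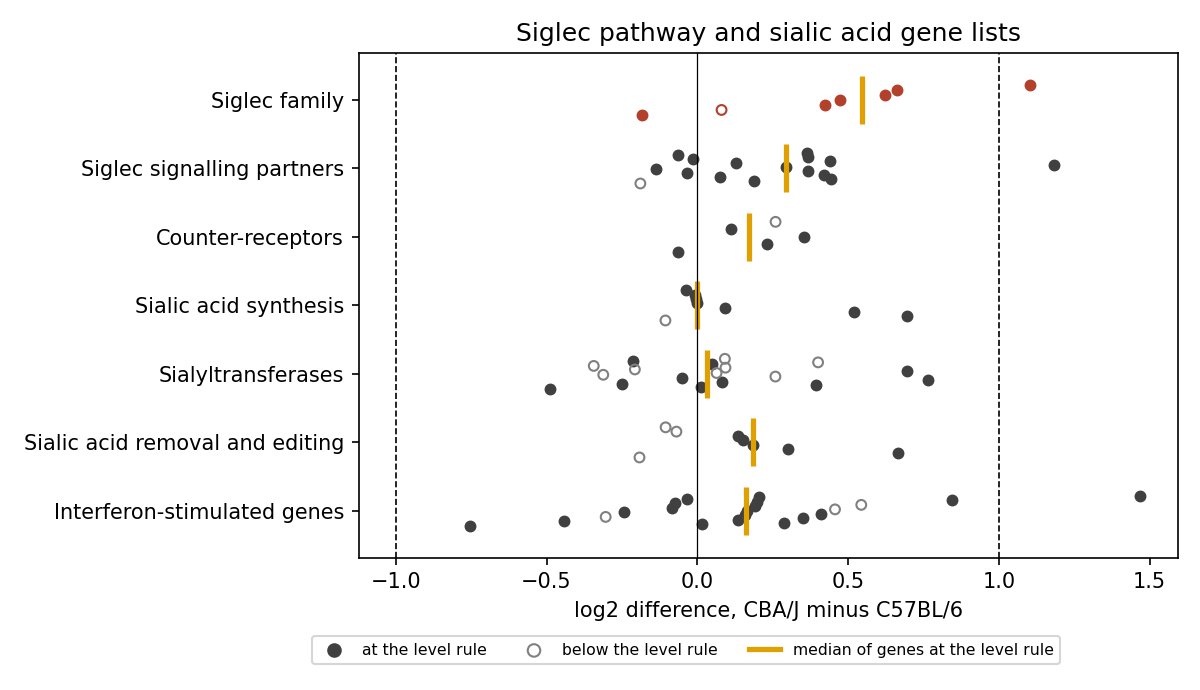
Log2 difference, CBA/J minus C57BL/6 (horizontal axis), of each gene in the Siglec family and 6 related lists, with filled points for genes at the level rule, open points for genes below it, a bar at the median of the filled points and dashed 2-fold lines. Siglec5, Fgr and Ifi44 are the genes past 2-fold, and the sialic acid synthesis and sialyltransferase medians lie near 0.

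Markers of cells that carry Siglec-F or other myeloid Siglecs also had unequal signal on the arrays. In RNA from whole cultures fewer cells of a type and less RNA per cell cannot be told apart. Of 10 eosinophil markers 6 reached the level rule. Of these, 4 were past 2-fold toward CBA/J and 1 toward C57BL/6, against 1.35% and 0.795% of all genes at the level rule. The summed linear signal of the list was 1399 on the CBA/J array and 795 on the C57BL/6 array. Ear2, an eosinophil-associated ribonuclease gene that reached the level rule on the CBA/J array only, had 7.23 in CBA/J and 5.60 in C57BL/6. The lipoxygenase gene Alox15 had 8.20 in CBA/J and 7.06 in C57BL/6. The other 2 markers past 2-fold toward CBA/J were Ear1 and Ear10. Ear6, which reached the level rule on the C57BL/6 array only, ran the other way, at 5.04 on the CBA/J array and 6.56 on the C57BL/6 array. So did Prg2, the major basic protein gene and the sole granule gene outside the Ear family at the level rule, at 6.27 on the CBA/J array and 6.94 on the C57BL/6 array. Ear genes are closely related copies, so their separate values, and with them much of the summed signal, are uncertain. The eosinophil peroxidase gene Epx, at 5.24 in CBA/J against 5.50 in C57BL/6, reached the level rule on neither array. The same held for the eotaxin receptor gene Ccr3, at 4.98 in CBA/J against 5.33 in C57BL/6. Il5ra lay below the negative control median on both.

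Markers of GM-CSF dependent alveolar-type macrophages had a median difference of 0.38 over the 6 of 8 at the level rule, with 3 positive and 3 negative. Their summed linear signal was 4711 on the CBA/J array and 5290 on the C57BL/6 array, so the sum ran against the median. The carbonic anhydrase gene Car4 had 9.26 in CBA/J and 8.11 in C57BL/6 and was past 2-fold, as was the chitinase-like gene Chi3l3 in the other direction, at 7.22 on the CBA/J array and 9.70 on the C57BL/6 array. The scavenger receptor gene Marco and the transcription factor gene Pparg both differed by 0.88, and Fabp4 was below the negative control median on both arrays. Tissue macrophage markers had a median difference of 0.80 over 7 of 12 members and a summed linear signal of 4470 on the CBA/J array and 3130 on the C57BL/6 array. Mrc1, the mannose receptor gene, was past 2-fold, at 8.25 on the CBA/J array and 7.16 on the C57BL/6 array, and Fcgr1 and Emr1, which encodes F4/80, each differed by 0.99. Of the 7 members 2 were higher in C57BL/6, the complement genes C1qb (-0.15) and C1qc (-0.12). Cd163, Cd5l, Timd4 and Vsig4 lay below the negative control median on both arrays.

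Neutrophil markers had a median difference of 1.40 over 5 of 11 members. Of these, 4 were past 2-fold toward CBA/J, against 1.35% of all genes at the level rule. The largest difference was that of Ly6g, at 7.53 in CBA/J and 4.96 in C57BL/6. Ly6g reached the level rule on the CBA/J array only and lay below the negative control median on the C57BL/6 array. The summed linear signal of the list was 1746 on the CBA/J array and 688 on the C57BL/6 array. The granule protein gene Ngp had 9.39 in CBA/J and 7.21 in C57BL/6, and S100a9, a calprotectin subunit gene, had 7.80 in CBA/J and 6.40 in C57BL/6. Ngp supplied 671 of the CBA/J sum and 148 of the C57BL/6 sum. Below the level rule, Camp (0.09), Mpo (-0.01) and Elane (-0.11) differed little, while Ltf (0.75), Cxcr2 (0.33) and Retnlg (0.28) were positive. Conventional dendritic cell markers had a median difference of -0.23 over 11 of 13 members. Of these, 2 were past 2-fold toward CBA/J and 2 toward C57BL/6, against 1.35% and 0.795% of all genes at the level rule. The summed linear signal of the list was 9837 on the CBA/J array and 13422 on the C57BL/6 array. Cd209a, a C-type lectin gene that reached the level rule on the CBA/J array only, had 9.57 in CBA/J and 5.38 in C57BL/6. The peptidase gene Dpp4 differed by 1.05. The chemokine receptor gene Ccr7 had 9.89 in CBA/J and 11.25 in C57BL/6, and the class II gene H2-Ab1 differed by -1.28. The limit on probe mismatches in CBA/J given above holds for H2-Ab1 too, and their part was not tested. Ciita, the class II regulator gene, differed by 0.92. The 11 markers split into 4 positive and 7 negative differences. Markers of the labelled cell type thus differed widely in both directions. For markers of mast cells and basophils, of which 4 of 9 reached the level rule, the median was -0.83. Cpa3 (-2.57) and Hdc (-1.27), which reached the level rule on the C57BL/6 array only, were past 2-fold toward C57BL/6, against 0.795% of genes. Gata2, the brightest of the list, ran the other way, at 7.82 on the CBA/J array and 7.23 on the C57BL/6 array. The summed linear signal was 526 on the CBA/J array and 743 on the C57BL/6 array. Fcer1a, Ms4a2, Mcpt8 and Cma1 lay below the negative control median on both arrays. The higher CBA/J signals of Siglec5, Cd33, Cd22, Siglece and Siglec1 stood beside higher CBA/J sums of eosinophil, tissue macrophage and neutrophil markers. The eosinophil sum rests on Ear1, Ear2, Ear10 and Alox15, and of the other eosinophil markers only Prg3 was higher in CBA/J. Emr1 supplied 1740 of the CBA/J sum of tissue macrophage markers and 877 of the C57BL/6 sum. Many negative controls of like signal differed as much as Siglece (481 of 1197), Siglec1 (415 of 1025) and Cd22 (194 of 968). Conventional dendritic cell and mast cell markers had lower sums in CBA/J, and the plasmacytoid sums were nearly equal. The lower conventional dendritic cell sum rests on Cd74, H2-Ab1 and Ccr7, and the limit on probe mismatches holds for H2-Ab1. Cd74 supplied 4158 of the CBA/J sum and 5134 of the C57BL/6 sum. Alveolar-type macrophage markers had a lower sum in CBA/J, with Chi3l3 the largest difference, but a median of 0.38. No B cell marker reached the level rule. The part of these cells in the Siglec values was not tested.

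**Figure D4:**
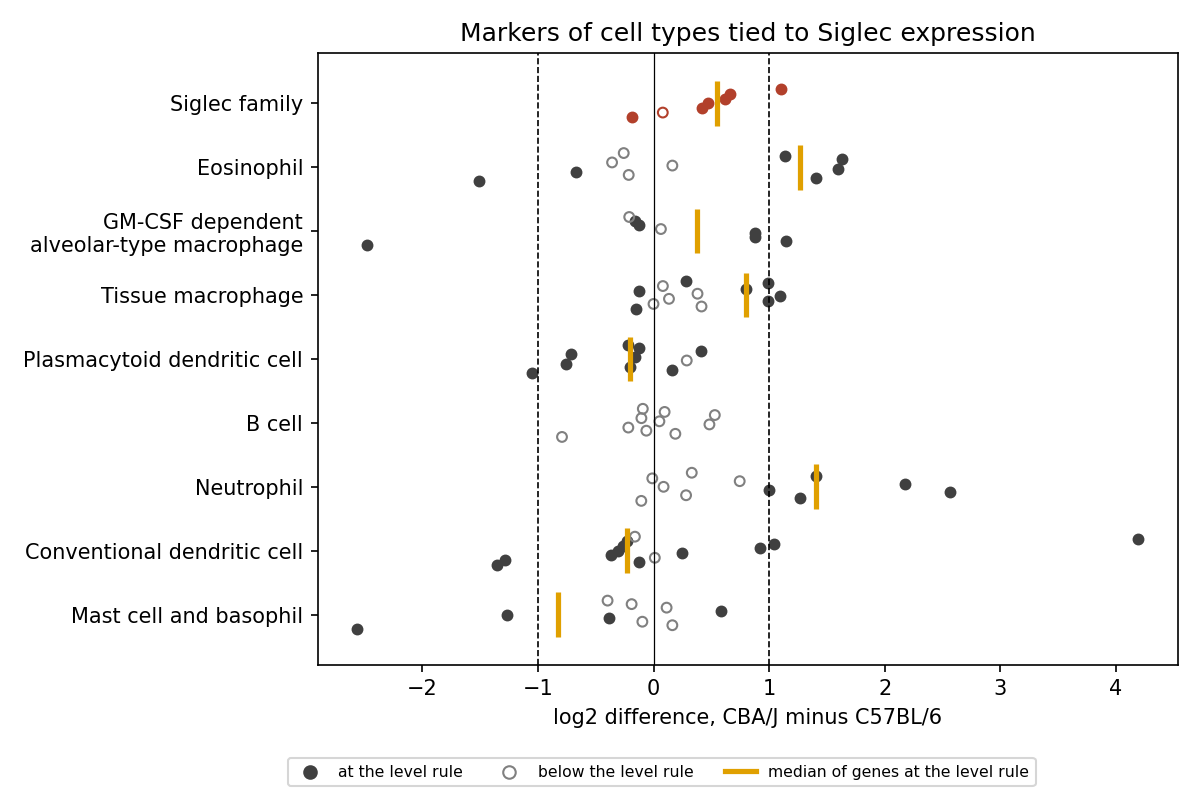
Log2 difference, CBA/J minus C57BL/6 (horizontal axis), of the Siglec genes and of markers of 8 cell types, with filled points for genes at the level rule, open points for genes below it, a bar at the median of the filled points and dashed 2-fold lines. Neutrophil, eosinophil and both macrophage medians lie above 0, plasmacytoid and conventional dendritic cell and mast cell medians lie below it, and no B cell marker reached the level rule.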

How the data were processed

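Expression was measured on 2 arrays, 1 per strain. The authors deposited log2 signal per probe set, for which the submitters' processing notes name Affymetrix Expression Console 1.1. No source used here states how probes were summarised or background removed. Columns with the deposited log2 difference and linear ratio, per the file headers, were set aside, and every difference was computed from the log2 columns. The number of arrays limits the precision.

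Of 35557 probe sets, 24422 carried 1 gene symbol, counting 238 that repeat it, and 112 with several were left out. The probe set with the highest mean stood for a gene, which gave 21922 genes. Signal was set against 5222 negative control probe sets. Of these, 1845 reached the level rule themselves, so they are not a measure of empty background alone. The 159 names of 6 pathway and 8 cell type lists all matched, directly or through RefSeq synonyms. Members and lists were chosen with earlier results of these data known. Named genes were the members, each pathway list's genes past 2-fold, its 3 largest differences and 2 brightest genes, and flanking genes; marker genes were picked as examples after their values were seen. The result for 1 gene that this rule takes in is not reported here. The calculations were tested on simulated data. Alternatives in scaling, probe set choice, floor, level rule and threshold were recomputed. The tools were Python 3.11.15 with pandas 2.3.3, numpy 2.4.6, statsmodels 0.14.6 and matplotlib 3.10.9.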

Additional observations from a re-analysis of the deposited data

How the results depend on the processing

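Each Siglec gene kept the sign of its difference under quantile normalization, median centring and removal of a trend with signal level. The mean of probe sets, a floor at the negative control median and a pseudocount of 32 were also applied, but could not change a sign. Each member had 1 probe set and lay above the negative control median on both arrays, and a common pseudocount cannot reverse a difference. Siglec5 lay between 0.97 and 1.102, Cd33 between 0.58 and 0.66, and Siglecg between -0.26 and -0.14. The place of Siglec5 past 2-fold was lost after quantile normalization (0.982), after removal of the trend (0.983) and with the pseudocount (0.973), which left 0 members past 2-fold in each. At 1.5-fold 3 of the 6 members and 8 of 59 pathway list genes at the level rule passed, against 6.93% of all such genes. At 3-fold 0 and 0 passed, against 0.54%. A level rule at the 95th percentile of the negative controls kept 2 of the 6 members, beside 4112 of the 11448 genes. It kept 1 of the 2 pathway genes past 2-fold. With the level rule set at the median of probe sets, chosen after seeing the data, 5 members reached it and Siglece did not. The cause of these shifts was not tested. No paired analysis was possible because there was 1 array per strain. Signal over the negative controls limits all members except Cd33, for Siglec5 on the C57BL/6 array alone.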

Other observations

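Other genes of the Siglec family outside the 7 lay near 0. Mag, the myelin-associated glycoprotein gene that flanks Cd22, read 5.70 in log2 signal on the CBA/J array and 5.79 on the C57BL/6 array, below the level rule on both arrays. Siglec15 had 6.76 in CBA/J and 6.87 in C57BL/6, a difference of -0.10. Both were chosen after their values were seen.

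The genes with the pair of log2 values nearest to that of Siglec5, by Euclidean distance over the 2 arrays, were Glo1 (0.02 away, at 8.51 on the CBA/J array and 7.38 on the C57BL/6 array), Itpr2 (0.05 away) and Ahrr (0.08 away). As many as 11 genes lay within 0.2 of it, and a likeness over 2 arrays does not single out related genes.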
